A study of Mus musculus with 2 samples.

Results

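The broad hotspots of the newborn mouse stomach are long stretches of accessible chromatin that were wide in both replicates of a DNase-seq experiment. They were chosen by their width: an autosomal hotspot of at least 1500 bp in 1 replicate had to overlap, by at least 1 bp, a hotspot of at least 1500 bp in the other, and the overlapping intervals were merged. This gave 518 regions, built from 806 such hotspots in replicate 1 and 1302 in replicate 2, out of 125137 and 135185 autosomal hotspots. Widths, and all values that follow from width, are therefore given as a description without a test. DNase I cuts DNA where nucleosomes are displaced, and the sequenced cut sites map open chromatin. In each library a hotspot is a stretch of raised cleavage and a peak is a window of at most 150 bp on a local maximum; overlapping peaks of both replicates were joined into shared peaks, some of them longer. Stomach tissue came from newborn mice (day 0) of the B6NCrl strain, which form 1 group with 2 biological replicates, each a single library. A single donor entry stands on both libraries, the sex was not collected, nothing says whether animals were pooled, and 2 instruments are named for replicate 2 and none for replicate 1. No treatment or genotype is named, so there is no second condition to compare with, and the spread between the replicates may be technical.

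Promoters are the best known sites of open chromatin. RNA polymerase II starts there, flanked by transcription factors on the upstream side and by a positioned nucleosome downstream, and most mammalian promoters of broadly used genes lie in CpG islands, stretches in which the CpG dinucleotide has escaped the loss seen in the rest of the genome. Enhancers are usually short when open. Long open domains are known from strongly used or regulatory genes, where several open sites lie side by side. The stomach at birth holds a glandular and a squamous epithelium, smooth muscle, mesenchyme, nerves and vessels, and its cell types cannot be told apart in bulk tissue.

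The strongest accessible site inside the widest regions is shown for 7 of them, because these windows hold different kinds of sequence. All sequences are the + strand of GRCm38 (mm10), from 5′ to 3′, and capitals mark matches, on either strand, to the consensus strings searched. The windows at Hivep1 (chr13:42051636-42051805) and Dusp4 (chr8:34807136-34807285) are GC-rich promoter sequence with several GC boxes (GGGCGG), and that of Hivep1 also has a CRE string (TGACGTCA), that of Dusp4 a CTCF core string (CNAGGGGGC) and a FOXA string (TGTTTAC). The window at Myc (chr15:61985456-61985605) has a TATA string, and that at Tnrc18 (chr5:142817816-142817965) a TATA and a FOXA string. The window in the region at the 5′ end of the noncoding RNA gene Neat1 (chr19:5846696-5846845) holds none of the strings. The last pair, at Ugt1a1 (chr1:88211816-88211985) and Trpm8 (chr1:88301736-88301905), is poor in CpG, and the former holds an HNF1 string (GTTAATNAT).
Hivep1: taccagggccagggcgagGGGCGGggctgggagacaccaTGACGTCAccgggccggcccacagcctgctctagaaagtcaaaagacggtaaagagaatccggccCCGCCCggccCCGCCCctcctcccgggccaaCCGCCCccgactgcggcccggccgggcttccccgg
Dusp4: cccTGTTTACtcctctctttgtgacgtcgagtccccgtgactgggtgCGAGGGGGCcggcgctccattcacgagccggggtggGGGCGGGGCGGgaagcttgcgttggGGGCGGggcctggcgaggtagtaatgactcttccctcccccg
Myc: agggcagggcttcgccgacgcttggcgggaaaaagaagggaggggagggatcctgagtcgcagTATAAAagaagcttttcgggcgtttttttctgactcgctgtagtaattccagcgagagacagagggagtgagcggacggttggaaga
Tnrc18: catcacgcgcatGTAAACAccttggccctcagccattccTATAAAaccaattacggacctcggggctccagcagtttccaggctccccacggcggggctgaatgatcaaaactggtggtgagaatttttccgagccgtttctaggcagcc
Neat1: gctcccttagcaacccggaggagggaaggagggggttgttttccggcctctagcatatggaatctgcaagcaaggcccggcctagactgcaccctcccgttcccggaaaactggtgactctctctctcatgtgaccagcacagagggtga
Ugt1a1: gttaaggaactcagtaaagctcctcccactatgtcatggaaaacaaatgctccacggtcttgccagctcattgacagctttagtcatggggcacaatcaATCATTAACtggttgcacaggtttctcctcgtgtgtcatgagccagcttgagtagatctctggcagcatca
Trpm8: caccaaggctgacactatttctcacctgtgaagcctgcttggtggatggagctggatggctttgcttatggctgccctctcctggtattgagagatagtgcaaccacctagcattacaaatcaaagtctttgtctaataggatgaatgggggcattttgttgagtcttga
The Hivep1 window has 17 CpG and a GC content of 73.5%, the Dusp4 window 14 CpG and 68.7%. The Ugt1a1 window has 2 CpG and 47.1%, and the Trpm8 window has 0 and 46.5%.

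Hotspots as wide as this were rare. They made up 0.644% of autosomal hotspots in replicate 1, where the median hotspot was 229 bp wide, and 0.963% in replicate 2, with a median of 238 bp. Of all 93401 autosomal hotspots shared by the replicates, the broad regions were 0.555%, and they held 2.99% of the bases. Together they spanned 1128 kb. Of the wide hotspots, 64.5% of replicate 1 and 40.2% of replicate 2 entered the set. Nearly all the others were narrower in the second library rather than missing from it: 286 of 286 in replicate 1 and 777 of 778 in replicate 2 overlapped a shorter hotspot. Read totals are not stated in the labels or files used, so the depth is unknown, and its part in these widths was not tested. Just inside the width minimum were the regions at Gigyf2 (1502 bp in replicate 1 and 1812 bp in replicate 2), Eapp (1502 and 1577 bp) and Gpr108 (1503 and 1961 bp), and just outside were those at Clcn3 (1 bp short of the minimum in replicate 1 and 1607 bp in replicate 2), Rps6kb1 and Tubd1 (1497 and 1598 bp) and Inafm1 (1548 and 1497 bp).

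The merged width had a median of 2005.5 bp and ran from 1528 bp at Pdcl to 8608 bp at Tnrc18. There were 260 regions over 2000 bp. In 512 regions a single hotspot of each replicate made up the region. Where there were several, the width of a replicate is given below as their sum; hotspots under 1500 bp in the same stretch are not counted in it. Replicate 1 had a median of 1767 bp (1502 to 8608) and replicate 2 a median of 1892.5 bp (1505 to 7620), and 334 regions were wider in replicate 2, 182 in replicate 1 and 2 equal. The edges lay a median of 66 bp apart on the left and 65 bp on the right, and both edges were within 100 bp in 208 regions. The wider replicate exceeded the narrower by a median of 1.08 times, and by over 1.5 times in 33. With the shorter hotspots inside a region counted too, which 147 regions had in replicate 1 and 93 in replicate 2, the medians were 1871 and 1945.5 bp, and 1 region differed by over 1.5 times. Of these 518 regions, 516 had a hotspot at the highest q value that the files hold, a −log10 q of 100, in both replicates. The exceptions were a region at Tox (4.28 in replicate 1) and one downstream of Jun (3.89 in replicate 2).

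**Figure D1:**
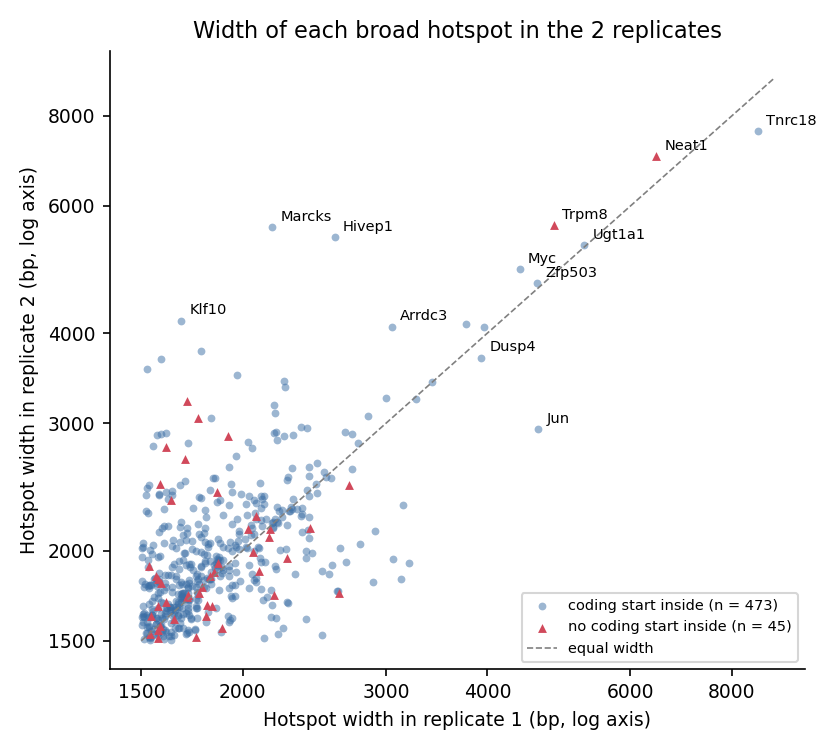
Width of each broad hotspot in replicate 1 (x axis, bp, log axis) and replicate 2 (y axis, bp, log axis), with the 473 regions that hold a coding start as circles, the 45 others as triangles and a dashed line at equal width; where a replicate has several hotspots in a region their widths are added. Most regions lie near the line, while Marcks, Hivep1 and Klf10 have 4164 to 5611 bp in replicate 2 and 1681 to 2595 bp in replicate 1, where shorter hotspots of the same stretch are not counted.

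Single regions were cut into hotspots differently in the libraries. At Marcks, whose product is a membrane-bound substrate of protein kinase C, the hotspot measured 2175 bp in replicate 1 and 5611 bp in replicate 2. Hivep1, a zinc finger transcription factor gene, had 2595 and 5429 bp, and Klf10, a Krüppel-like factor gene induced by TGF-β, had 1681 and 4164 bp. E2f3, a cell cycle regulator, had 1587 and 3685 bp, and Trib1, a pseudokinase gene, 1523 and 3567 bp. These are the 5 largest differences in the width of wide hotspots, and all were wider in replicate 2. At Jun the order was reversed, with 4618 bp in replicate 1 and 2948 bp in replicate 2. Much of these differences lay in shorter hotspots of the same stretch. Counting these, the bases covered were 5192 in replicate 1 and 5611 in replicate 2 at Marcks, 3639 and 4164 at Klf10, and 3625 and 3685 at E2f3. At Jun they were 4618 and 4381. Larger differences remained at Hivep1, with 4017 and 5429 bases, and at Trib1, with 2729 and 3567.

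Protein-coding promoters accounted for most broad hotspots. Of the 518 regions, 473 held the start of a protein-coding transcript of GENCODE M21, which is 91.3% (95% Wilson interval 88.6 to 93.4; these intervals cover counting error only), and in 90.5% (87.7 to 92.8) the centre lay within 1 kb of one. Narrower hotspots held starts less often. A start lay in 75.9% (74.5 to 77.2) of the 3736 shared hotspots of 1000 to under 1500 bp, in 32.7% of those of 500 to under 1000 bp and in 4.93% of those under 500 bp. A longer interval holds a start more easily, but the share of centres within 1 kb, which does not depend on the interval's length, moved the same way: 90.5% in the broad regions, 77.9%, 39.8% and 11.7%. Shared hotspots of at least 1500 bp that were not wide in both replicates stood at 89.3% (87.5 to 90.8) with a start, an interval that overlaps that of the broad regions.

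**Figure D2:**
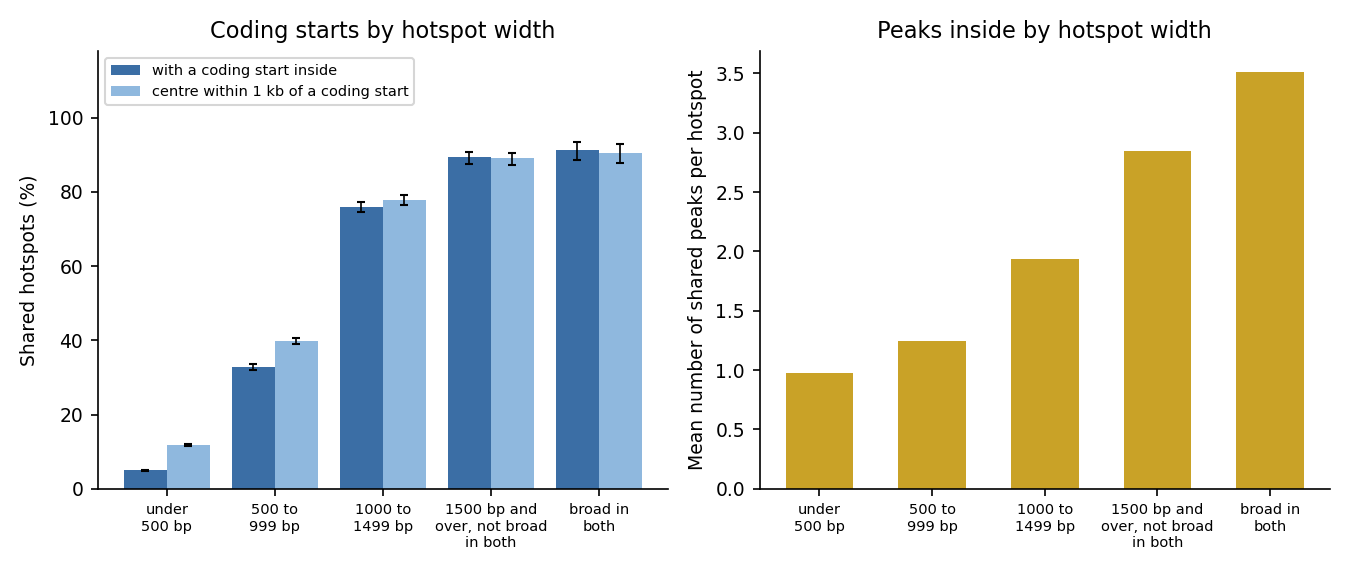
Left, share of shared hotspots (y axis, percent) with a coding start inside or with their centre within 1 kb of one, by width class (x axis), with 95% Wilson intervals as bars; right, mean number of shared peaks per hotspot (y axis) in the same classes. The share with a start goes from 4.93% under 500 bp to 91.3% in the broad regions, and the mean number of peaks from 0.977 to 3.52.

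Paired promoters were frequent. Among the 473 regions with a coding start, 114 held starts on both strands, 24.1% (20.5 to 28.2), against 12.8% (11.6 to 14.1) in shared hotspots of 1000 to under 1500 bp. Starts of 2 or more genes lay in 24.9% (21.3 to 29.0) of them, against 13.4% (12.2 to 14.7). In shared hotspots of at least 1500 bp that were not wide in both replicates the shares were 15.3% (13.4 to 17.5) and 15.7% (13.7 to 17.8). A longer interval meets a second start more easily, and the part of length in these shares was not tested. The region of 3405 bp shared by Ddit3, the stress-response transcription factor CHOP, and Mbd6, a methyl-CpG-binding domain protein gene, measured 3064 bp in replicate 1 and 1949 bp in replicate 2, or 3114 and 3393 bp with shorter hotspots. In 4 regions 3 annotated coding genes started: Bet1l, Gm45785 and Ric8a (2273 bp), Cdnf, Gm45902 and Hspa14 (1983 bp), Fiz1, Gm44973 and Zfp524 (1948 bp), and AL731706.1, Mkks and Slx4ip (1722 bp). Ric8a encodes a chaperone of G protein alpha subunits, Hspa14 a ribosome-associated heat shock protein and Mkks a chaperonin-like protein. Gm45785, Gm45902, Gm44973 and AL731706.1 are known only by annotation numbers.

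Where all starts lay on the same strand, the open stretch reached both upstream and into the gene. In these 359 regions a median of 1003 bp lay upstream and 1028 bp downstream of the start nearest the middle, an anchor that itself draws the split towards the centre, and a median of 49.9% of the width was downstream. At least 500 bp lay on both sides in 321 of the 359. In shared hotspots of 1000 to under 1500 bp the medians were 568 bp upstream and 644 bp downstream. Measuring from the annotated 5′ end of each gene gave 58.1% downstream. The regions were not all even. Tnrc18, a gene for a large nuclear protein with trinucleotide repeats, had 6272 bp upstream and 2336 bp downstream, and Arrdc3, an arrestin-domain gene, had 846 bp upstream and 3345 bp downstream. Of all bases in the broad regions, 29.1% were exonic in protein-coding genes, 36.8% intronic and 34.1% outside coding genes.

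Several separate peaks made up a broad hotspot. A shared peak is a site where peaks of both replicates overlap, and the mean per region was 3.52 and the median 3, with a range of 1 to 14. There were 2 or more in 98.1% (96.5 to 98.9) of regions and 3 or more in 81.7% (78.1 to 84.8), against 74.8% (73.3 to 76.1) and 18.3% (17.0 to 19.5) in shared hotspots of 1000 to under 1500 bp. No region was without one, and 10 had 1, among them the region at Jup, the plakoglobin gene of cell junctions. The density did not rise with width: the broad regions had a median of 1.66 shared peaks per kb and the next width class 1.65, and peaks filled a median of 28.6% and 28.3% of the width. Neighbouring peak centres were a median of 500 bp apart (quartiles 390 and 660 bp), against 440 bp (350 and 570 bp) in hotspots of 1000 to under 1500 bp.

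The peaks inside a region were unequal. Peak signal, a number with no stated unit that ranks peaks only within its own list, had a median of 107 in replicate 1 and 116 in replicate 2 for the strongest peak of each region. The second strongest had 80 and 90, the third 59 and 71, and the fifth, present in 89 regions, 46 and 59. The median over all shared peaks of the autosomes was 51 and 62, so the first and second peaks stood above it and the fourth, at 50 and 62, was level with it. Percentiles were taken within each replicate's full autosomal peak list, unshared peaks included, and averaged over the replicates. By this mean the strongest peak ranked in the top 10% in 92.5% (89.9 to 94.4) of regions. A peak in the top 1% lay in 25.7% (22.1 to 29.6) of regions. Both shares were higher in wider hotspots: over all shared hotspots they were 13.4% and 1.29%, and in those of 1000 to under 1500 bp 71.7% and 10.3%. Over all their peaks the broad regions were not higher than the next width class: the 1821 peaks had a median of 75 in replicate 1 and 87 in replicate 2, against 79 and 89 in hotspots of 1000 to under 1500 bp.

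Peaks were concentrated just upstream of the start. In the 359 regions with starts on a single strand, the 250 bp upstream of the start held 0.710 shared peaks per region, and the 250 bp downstream held 0.228. A second rise lay inside the gene, with 0.387 peaks per region from 250 to 500 bp and 0.426 from 500 to 750 bp. In hotspots of 1000 to under 1500 bp the profile had the same dip after the start. The strongest peak lay within 250 bp of the start in 59.6% of these broad regions (214 of 359) and in 81.5% of the narrower ones, and over 500 bp away in 19.2% (69 of 359) and 5.71%. Its median position was 127 bp upstream (quartiles 322 and 43 bp upstream), against 70 bp upstream. Distances beyond the narrower hotspots' reach can occur only in the broad ones. All these distances are from the start nearest the middle of the region, and another start can lie closer to the peak. At Myc the strongest peak was 391 bp from that start and 33 bp from the nearest coding start. Broad regions with a coding start held a mean of 3.26 starts and the narrower ones 2.50, and the part of this in the shares was not tested.

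**Figure D3:**
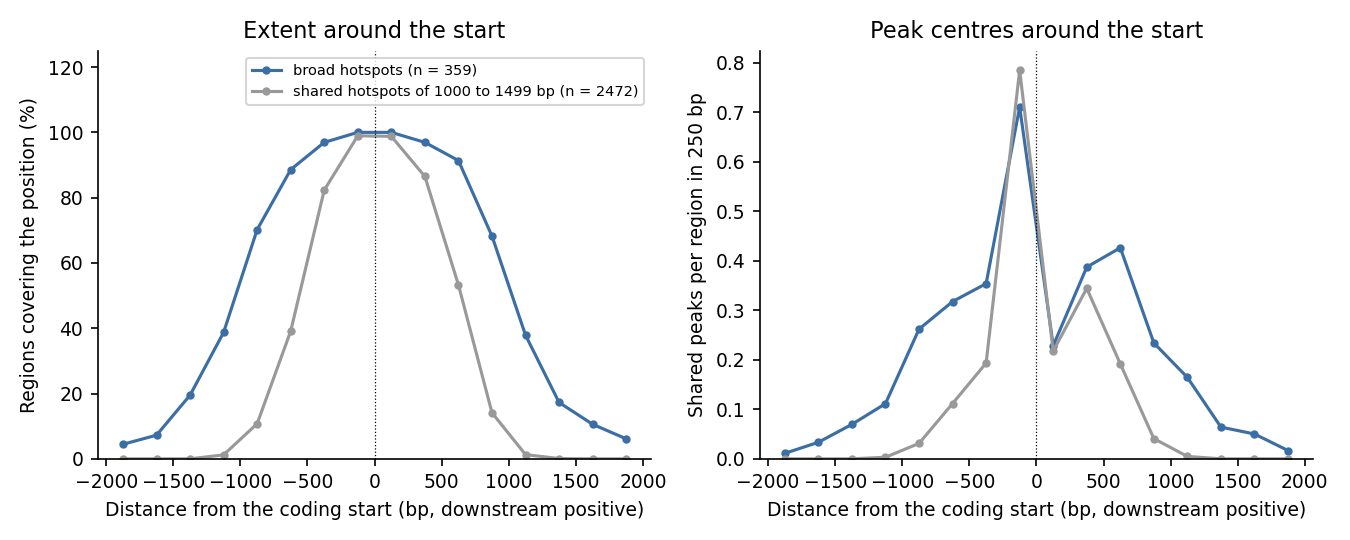
Left, share of regions that cover a position (y axis, percent) against distance from the coding start (x axis, bp, downstream positive); right, shared peak centres per region in 250 bp bins (y axis) on the same x axis, for the 359 broad hotspots with starts on a single strand and for shared hotspots of 1000 to under 1500 bp. The start is the one nearest the middle of the region. Both sets peak in the bin just upstream of it, at 0.710 in the broad hotspots, and dip just after. A second rise reaches 0.426 between 500 and 750 bp downstream in the broad hotspots and 0.344 between 250 and 500 bp in the narrower ones.

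The peaks of single regions show how this looks at a locus. At Jun, which encodes a subunit of the AP-1 transcription factor, 6 shared peaks covered the promoter and the gene. The peak 109 bp upstream reached 112 in replicate 1 and 122 in replicate 2, the peak 1119 bp upstream had 112 and 117, and the 3 peaks downstream of the start had between 54 and 73 in replicate 1 and between 62 and 87 in replicate 2. The promoter pair was thus the high end in both libraries. Dusp4, a phosphatase gene that restrains MAP kinases, had 7 peaks, of which that 86 bp upstream was highest (91 and 109) and the 4 inside the gene had 51 to 62 in replicate 1 and 59 to 78 in replicate 2. At Zfp503, a zinc finger repressor gene, the order differed: the peaks 1150 bp downstream (117 and 121) and 1570 bp downstream (116 and 114) were at least as high as the peak at the start (90 and 114). At Marcks the highest of 9 peaks lay 2451 bp upstream (105 and 117), and the peak at the start had 88 and 100.

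Myc, the proto-oncogene of cell growth, had 8 shared peaks over 5232 bp (4385 bp in replicate 1, 4911 bp in replicate 2; mm10 chr15:61983245-61988476). Measured from the start nearest the middle of the region, the 4 upstream peaks reached from 2411 to 391 bp before it, with signals of 80 to 109 in replicate 1 and 95 to 115 in replicate 2. Of the 4 downstream, that at 1249 bp had 100 and 105, and the others 36 to 53 and 47 to 62. Both libraries gave the same division into high and low peaks. Tnrc18 had the most peaks of any region, 14 over 8608 bp (chr5:142815327-142823934). Replicate 1 called this stretch as 1 hotspot and replicate 2 as 4 wide ones that add up to 7620 bp. Its highest peak, shown above, had 105 and 113, and the peak farthest upstream still had 101 and 104. Next in number of peaks were Trpm8 with 10, Marcks with 9, and Neat1, Hivep1, Ugt1a1 and Myc with 8 each. With 7 each followed Dusp4, Jag1, which encodes a Notch ligand, Tgif1, a homeodomain repressor gene (3420 bp in replicate 1 and 3422 bp in replicate 2), Setd5, a chromatin regulator gene (2401 and 2957 bp), and Tent5a, a poly(A) polymerase gene (2895 and 1811 bp).

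By sequence the broad hotspots were mostly CpG islands. The observed CpG count relative to that expected from base composition had a median of 0.745 in them and of 0.186 in windows of equal width 10 kb to either side. It was at least 0.6 in 84.0% (80.6 to 86.9) of regions. In shared hotspots of 1000 to under 1500 bp the median was 0.705 and in those under 500 bp 0.234, so most of the contrast with other open chromatin was with narrow sites. GC content had a median of 58.6%, against 42.9% in the windows to either side. Little of the sequence had exact copies elsewhere: 317 regions had no 31-base word that recurs in the genome, and the highest share, at Mrpl41 and Pnpla7, was 5.14% of words.

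**Figure D4:**
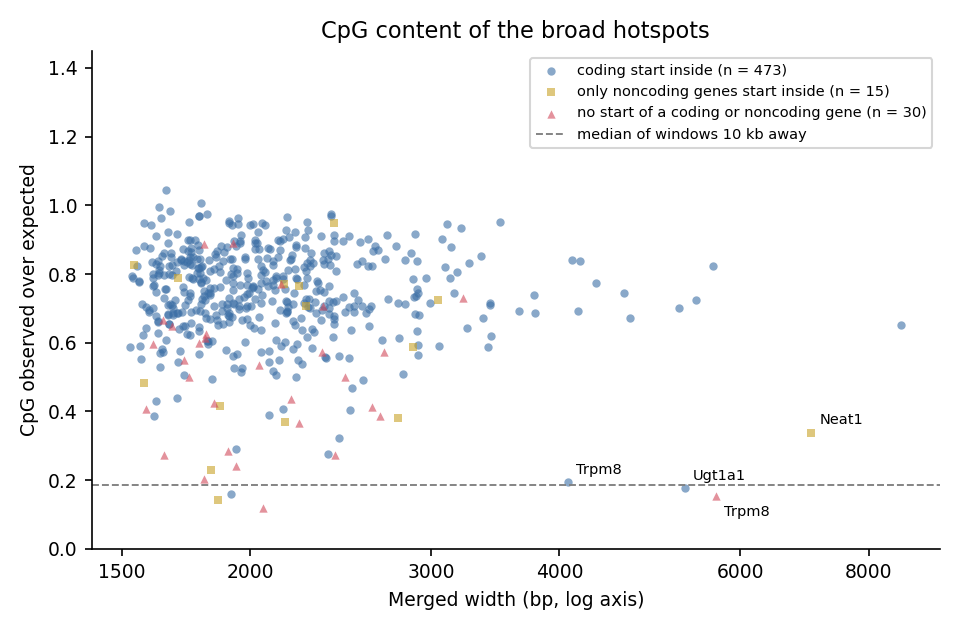
CpG observed over expected (y axis) against merged width (x axis, bp, log axis) for the broad hotspots, with a coding start inside (circles), only noncoding genes starting inside (squares) or neither (triangles); the dashed line is the median of windows 10 kb away, 0.186. Most regions lie well above the line, and those at Trpm8 and Ugt1a1 lie on or near it.

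A minority were open over long CpG-poor sequence. The ratio was under 0.4 in 22 regions, 14 of them without a coding start, and under 0.2 in 6. Of those 6, 4 lay within 99.3 kb of chromosome 1, from Ugt1a1 to Trpm8. Ugt1a1 encodes the enzyme that conjugates bilirubin, and Trpm8 the cold-sensing ion channel. The region at Ugt1a1 (chr1:88211563-88216857) measured 5266 bp in replicate 1 and 5295 bp in replicate 2, began 396 bp before the start and ran 4899 bp into the gene, with a ratio of 0.176. At Trpm8 a region of 5678 bp (4828 and 5645 bp; chr1:88297296-88302973) ended 310 bp before the nearest coding start, one of 4073 bp (3966 and 4073 bp) held a start, and one of 2059 bp (2059 and 1992 bp) followed it, at ratios of 0.155, 0.195 and 0.119. The strongest peaks of these 4 regions were low for broad hotspots in replicate 1, at 68, 55, 76 and 37, and in replicate 2, at 77, 85, 91 and 55. Across the stretch, 14 shared hotspots covered 27.4% of the bases, against 1.59% of all autosomal sequence, and between them lay a hotspot of 1489 bp, just under the width minimum, whose peak had 147 and 146. The stretch was singled out after its values were seen. The other CpG-poor regions of this kind were at Plec, the gene of the cytoskeletal linker plectin (0.160), and downstream of Jun (0.141).

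Motif strings were searched in the 150 bp around the centre of each shared peak, on both strands. Within 1 kb of a coding start the GC box GGGCGG, the usual site of Sp and KLF factors, lay in 44.1% (41.5 to 46.6) of the 1473 peaks of broad hotspots, in 47.3% (46.0 to 48.6) of peaks of hotspots of 1000 to under 1500 bp and in 40.9% of the peaks of all shared hotspots outside the broad ones. The ETS string CCGGAAGT, typical of compact housekeeping promoters, was in 2.31% (1.66 to 3.21) of peaks of broad hotspots, against 5.06% (4.52 to 5.67) and 3.66% (3.43 to 3.90) in the same sets. Farther than 1 kb from any coding start the GC box was in 21.8% (17.8 to 26.5) of 348 peaks, against 17.2% (15.5 to 19.1) and 7.88% (7.69 to 8.07). The AP-1 string TGANTCA, a mark of many enhancers, was in 6.32% (4.21 to 9.39) of those peaks, against 12.8% (11.3 to 14.4) and 14.7%. The FOXA string TGTTTAC was in 3.16% against 5.13% of other distant peaks, AGATAAG for GATA in 2.87% against 4.40%, with intervals that overlap, and the HNF4 string CAAAGTCCA in 0 of 348, which allows up to 1.09% by the Wilson interval, against 1.18%. The 348 distant peaks include outer peaks of regions that hold a coding start, such as that 2451 bp upstream at Marcks. The compared peaks were not matched for this or for CpG content. A string match is not a bound site. Of 593 genes with a start in a broad hotspot, 483 had a RefSeq promoter of 300 bases (GRCm38): 70.6% of these held a GC box and 5.18% the TATA string TATAAA, against 48.1% and 12.9% of all 15680 promoters. The ETS string was in 6.42% of these 483 promoters and in 5.53% of all, so its lower share per peak was not seen there. The 15680 include promoters of genes outside shared hotspots, and promoters in open chromatin alone were not searched.

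Those 593 genes were 2.87% of the 20698 autosomal protein-coding genes, and 4.71% of the 12585 whose start lay in a shared hotspot of any width. These are the shares against which the gene lists that follow are read. Taken alone, replicate 1 had a wide hotspot at 4.18% of genes and replicate 2 at 6.74%. The genes were longer than others, with a median of 32.1 kb against 25.1 kb for the other genes in shared hotspots and 17.6 kb for all. No list was tested, and each share that follows is to be read against these 2.87%.

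The list of immediate early genes, which cells switch on within minutes of a stimulus, and of stress genes had broad hotspots at 11 of 55, 20% (11.6 to 32.4). With 54 of the 55 in a shared hotspot of some width, the share of open genes was 20.4% against 4.71%. The members were Myc, Jun, Klf10, Trib1, Bhlhe40, Dusp1, Pim1, Klf4, Egr1, Cebpd and Klf13. Bhlhe40, a repressor linked to the clock and to hypoxia, had 2184 bp in replicate 1 and 2910 bp in replicate 2. Dusp1, the inducible phosphatase of MAP kinases, had 2097 and 2013 bp, and Egr1, the zinc finger factor induced by growth signals, 1888 and 1861 bp. The kinase gene Pim1 had 1956 and 1923 bp, and Cebpd, a C/EBP transcription factor gene, 1760 and 1736 bp. The share was 27.3% in replicate 1 alone and 23.6% in replicate 2 alone, where all genes stood at 4.18% and 6.74%. RNA was not measured in this series. The median width of the widest shared hotspot at their starts was 1317 bp, against 869 bp over all genes with one.

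The KLF and SP family, zinc finger factors that bind GC boxes, had 6 of 25, 24% (11.5 to 43.4): Klf10, Klf7, Klf3, Sp1, Klf4 and Klf13. Klf7 measured 1847 and 2521 bp in replicates 1 and 2, and Klf3 2122 and 2378 bp. Sp1, the founding member that binds many housekeeping promoters, measured 2069 and 2254 bp. Klf10, Klf4 and Klf13 stand in the list above as well. Replicate 1 alone added Klf11, Sp3 and Sp4. Splicing factor genes had 5 of 30, 16.7% (7.34 to 33.6), with Hnrnpul1 (2530 bp in each replicate), Hnrnph1 (1735 and 2288 bp), Hnrnpul2 (1678 and 2188 bp), Hnrnph3 (1826 and 1828 bp) and Srsf7 (1682 and 1732 bp). Of the general housekeeping genes 4 of 31 had one, 12.9% (5.13 to 28.9): Snrpd3 of the spliceosome, the RNA polymerase II subunit gene Polr2a, the ubiquitin gene Ubb and the transferrin receptor gene Tfrc, which also stands in the erythroid list (1 of 17). Ribosomal protein and proteasome genes, which every cell uses, had shares whose intervals hold the 2.87% of all genes. Over those in a shared hotspot the shares were 1.33% and 0%, against 4.71%, with no interval computed. Of 79 cytosolic ribosomal protein genes, 75 lay in a shared hotspot, and 1, Rpl7, whose region also holds the start of Rdh10, in a broad one, 1.27% (0.224 to 6.83). Of 38 proteasome genes 36 were in a shared hotspot and 0 in a broad one (up to 9.18%). Their hotspots had median widths of 770 and 892.5 bp, near the 869 bp of all genes. Respiratory complex I had Ndufa11 alone of 34, beside Vmac.

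**Figure D5:**
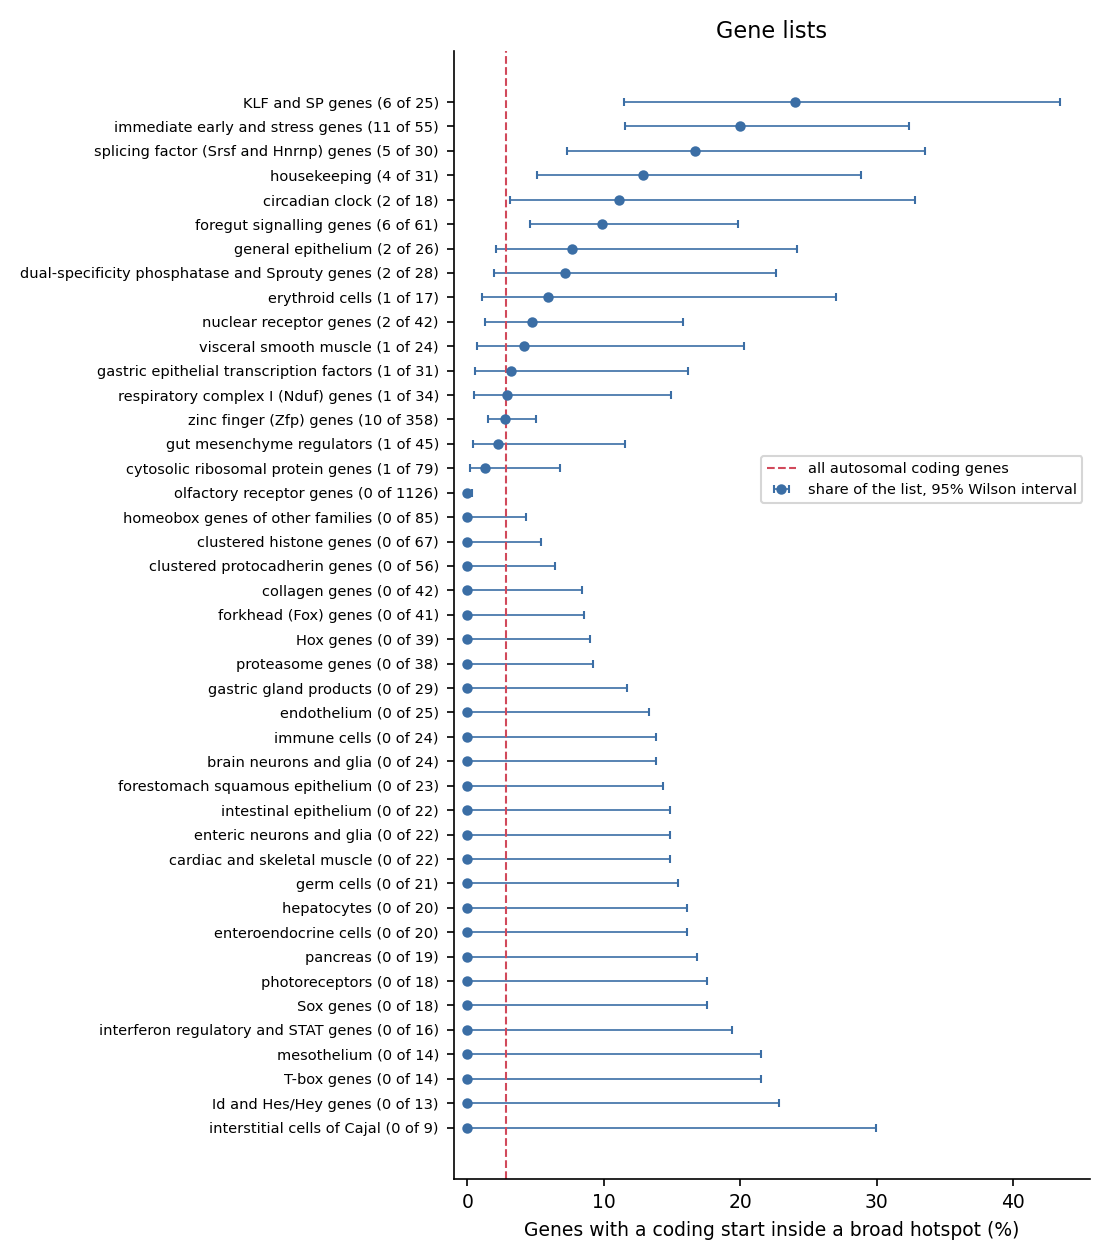
Share of the autosomal members of each of 43 gene lists with a coding start in a broad hotspot (x axis, percent; counts beside the names), with 95% Wilson intervals; the dashed line is the share of all autosomal coding genes, 2.87%. The intervals of KLF and SP genes, immediate early and stress genes, splicing factors, housekeeping, circadian clock and foregut signalling genes lie above the line, while 27 lists stand at 0. The share over genes in a shared hotspot, 4.71%, lies within the interval of circadian clock genes (3.10 to 32.8), all 18 of which lie in one. For foregut signalling genes the interval (4.59 to 19.8) is over all 61 genes. Their share over the 51 in a shared hotspot was 11.8%, for which no interval was computed.

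Signalling genes of foregut development followed. Of 61, 6 had a broad hotspot, 9.84% (4.59 to 19.8). With 51 of the 61 in a shared hotspot, the share of open genes was 11.8% against 4.71%. Jag1, the Notch ligand, had 1779 bp in replicate 1 and 3775 bp in replicate 2 with 7 shared peaks, and Bmpr2, a receptor for bone morphogenetic proteins, had 1608 and 2909 bp with 5. With shorter hotspots counted, replicate 1 covered 3237 bases at Jag1 and 2634 at Bmpr2. Fgf9, a growth factor that acts from epithelium and mesothelium on gut mesenchyme, had 1736 and 1881 bp, and Ltbp1, which stores latent TGF-β in the matrix, had 1870 and 1761 bp. The Wnt receptor gene Fzd1 (1654 and 1842 bp) and Smad6, an inhibitor of bone morphogenetic protein signals (1638 and 1752 bp), completed them. Among phosphatases of MAP kinases and Sprouty inhibitors of growth factor signals 2 of 28 had one, Dusp4 (3928 and 3701 bp) and Dusp1. Of the nuclear receptors 2 of 42 did: Nr3c1, the glucocorticoid receptor gene (3265 and 3243 bp), and Nr1d2, a repressor of the circadian clock (1760 and 1825 bp). Nr1d2 and Tef, a clock-controlled transcription factor gene (1804 and 1777 bp), were the 2 of 18 clock genes, 11.1% (3.10 to 32.8). All 18 lay in a shared hotspot, and the interval holds the 4.71% of such genes.

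Genes that define stomach cell types mostly had narrow open promoters. Of 29 products of the gastric glands, such as mucins, trefoil factors and proton pump subunits, 0 had a broad hotspot (Wilson interval up to 11.7%), although 21 lay in a shared hotspot; none was wide in either replicate alone. The median of these was 464 bp, and the widest was that of the carbonic anhydrase gene Car2 at 960 bp. The trefoil factor gene Tff2 had 790 bp, the surface mucin gene Muc5ac 600 bp, the gastrokine gene Gkn1 496 bp and the proton pump subunit gene Atp4b 214 bp. Of 31 gastric epithelial transcription factors 26 lay in a shared hotspot, with a median of 593 bp, and Klf4 (1576 and 1859 bp) was the 1 in a broad one, 3.23%, near the share of all genes. Foxa1, Gata6 and Sox21 were wide in replicate 2 alone and Grhl2 in replicate 1 alone. With shorter hotspots counted, Foxa1 had 1708 bp in replicate 1 and 2846 bp in replicate 2, and Gata6 1401 and 1500 bp. Sox21 had 843 and 1556 bp, and Grhl2 1584 and 1408 bp. Gata4, Hnf4a and Klf5 had shared hotspots of 604, 582 and 574 bp. The general epithelium list had 2 of 26: Esrp1, a splicing regulator of epithelial cells (2413 and 2382 bp), and Jup (1546 and 1701 bp). These genes of the stomach were named after their values were seen.

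For muscle, mesenchyme and other cell types the counts were too small to set apart from the 2.87% of all genes. Visceral smooth muscle had 1 of 24, 4.17% (0.739 to 20.2), the focal adhesion gene Vcl (1925 and 2612 bp, or 2584 and 2612 with shorter hotspots). The 20 of these genes in a shared hotspot had a median of 490 bp. The contractile genes Myh11 (423 bp), Actg2 (405 bp) and Tagln (274 bp) lay below it, and Sorbs2 (1623 bp), Synm (1483 bp) and Srf (1269 bp) above. Sorbs2 was wide in replicate 1 alone (1604 and 1370 bp). Gut mesenchyme regulators had 1 of 45, 2.22% (0.393 to 11.6), the nuclear factor I gene Nfib (2178 and 2154 bp). Interstitial cells of Cajal had 0 of 9, with 6 in shared hotspots, among them Kit at 940 bp. The lists of enteric neurons and glia, enteroendocrine cells, endothelium, immune cells, mesothelium, forestomach squamous epithelium and intestinal epithelium each had 0, as did those of hepatocytes, pancreas, cardiac and skeletal muscle, brain, germ cells and photoreceptors. Each of these lists has at most 25 genes, so that 0 allows shares well above 2.87% by the Wilson interval. Fewer cells of a type and a narrower open site in each cell cannot be told apart in bulk tissue.

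Developmental transcription factor families had none, at sizes where the intervals still hold the 2.87% of all genes. There was no broad hotspot at the start of any of 39 Hox genes (up to 8.97%), 41 forkhead genes (up to 8.57%), 85 homeobox genes of other families (up to 4.32%), 18 Sox genes or 14 T-box genes. In shared hotspots of any width lay 4, 20, 37, 9 and 2 of them. Also at 0 were 67 clustered histone genes, 56 clustered protocadherin genes, 42 collagen genes, 16 interferon regulatory and STAT genes, 13 Id and Hes or Hey genes and 1126 olfactory receptor genes, of which 5 lay in a shared hotspot. Some of these genes were wide in a single replicate. In replicate 2 alone they were Hes6, Id2, Id4, Stat3, Stat6, Foxa1, Sox21, Pbx3, Hist1h2be and Hist4h4, and in replicate 1 alone Foxo3, Foxp1, Foxp2 and Six5. The Zfp genes, a large family of mostly KRAB-type zinc finger genes, had 10 of 358, 2.79%, close to the 2.87% of all genes. Their widest were Zfp503, with Zfp91 (2850 and 3071 bp, shared with Lpxn) and Zfp143 (2030 and 2828 bp).

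The 45 broad hotspots without a coding start were no narrower than the others. They had a median merged width of 2037 bp and a median of 4 shared peaks, but a median CpG ratio of 0.535 against 0.756 in the regions with a start. The start of a noncoding gene lay in 15 of them, and 29 held no annotated start at all. Of the 45, 18 were within 10 kb of a coding start, 27 were farther and 17 over 50 kb away. The widest was the 5′ end of Neat1, the long noncoding RNA that builds nuclear paraspeckles (chr19:5840807-5847836), with 6449 bp in replicate 1, as a pair of hotspots, and 7030 bp in replicate 2. It lay 27403 bp from the nearest coding start, that of Frmd8. Its strongest peak, shown above, had 126 in replicate 1 and 133 in replicate 2, and the next 108 and 106, while the other 6 had 37 to 61 and 50 to 77.

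The other wide regions far from coding genes were of both kinds. A region of 3049 bp held the start of the noncoding gene E130102H24Rik, 61379 bp from Ak4 (1761 and 3049 bp in replicates 1 and 2). One of 2785 bp held a start of Mir99ahg, the host gene of a microRNA cluster (1608 and 2785 bp), 270673 bp from the nearest coding start. Regions of 2699 bp (chr15:81521736-81524434; 2699 and 2466 bp), 55095 bp from Rbx1, and of 2676 bp (chr1:181255953-181258628; 1699 and 2676 bp), 43952 bp from Wdr26, held no annotated start. Their strongest peaks had 101 in replicate 1 and 107 in replicate 2, and 96 and 104, below the medians of 107 and 116 but far above those of all shared peaks. Among the regions nearer to genes, some continued a promoter: at Zfp503 3 broad hotspots followed each other with gaps of 123 and 4 bp, at Mnt, a repressor of the Myc network, 2 with a gap of 71 bp, and at Jun 2 with a gap of 10 bp. With the 3 at Trpm8, at gaps of 763 and 1019 bp, these 6 pairs were all the broad hotspots within 10 kb of each other.

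Broad hotspots were spread over all autosomes. Chromosome 11 had the most for its length, 53 regions or 0.434 per Mb, and chromosome 18 the fewest, 10 or 0.110 per Mb.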

How the data were processed

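DNase-seq of newborn mouse stomach was analysed in 2 replicates of 1 group. The deposited hotspots carry a −log10 q value that reaches at most 100 and a score that was used in no result, and the deposited peaks carry a signal in whole numbers of at most 150. Per the labels the build is mm10, and per the file headers' layout and the deposited file lists each replicate was called on its own alignments. For the aligner, the caller, its thresholds and the read totals: not given in the sources used here.

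Hotspots and peaks of the 19 autosomes were joined by an overlap of at least 1 bp with pandas 2.3.3 and numpy 2.4.6 in Python 3.11.15, and the joins were checked on simulated data. Coding starts were the starts of all protein-coding transcripts of protein-coding genes of GENCODE M21. Other transcripts of these genes were left out. Distances within a region were taken from the start nearest its middle. Sequence came from GRCm38, and promoters from the RefSeq table of that build. Wilson intervals at 95% were computed with scipy 1.17.1. The 15 motifs searched also included the CTCF core (CNAGGGGGC or CNAGGTGGC), NFY (CCAATCA), NRF1 (GCGCATGCG), GRHL (AACCGGTT), TEAD (ACATTCC) and the E-box (CACGTG); strings may overlap each other. With 1 group no test between conditions was made.

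Regions and genes were named by rule: the 10 widest and the 10 with most shared peaks, the 5 widest over 10 kb from a coding start, the 3 nearest the width minimum on each side, the 5 with most coding genes, the 5 largest differences between replicates, and of each of 43 gene lists the 3 members with the widest region, or all where there were at most 5. Other genes were named after their values were seen. The regions and the lists were chosen with earlier results of these data known. The alternatives changed the width minimum, the overlap, the replicate, the peaks, the annotated start and the chromosomes.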

Additional observations from a re-analysis of the deposited data

How the results depend on the processing

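Of 38 alternative values, 23 moved, a count by over 1.5 times and any other value by over 1 SD between the values with either replicate left out; the other 15 may still differ. The number of regions, 518, became 2552 with a width minimum of 1000 bp and 110 with 2000 bp, and 806 to 1302 with 1 replicate left out. The share with a coding start, 91.3%, became 86.0% and 92.7% at these minimums, 88.7% to 89.9% with a replicate left out, and 84.9% when only the 5′ end of each gene counted. The mean number of shared peaks, 3.52, became 2.59 and 4.47, 2.99 to 3.12 with a replicate left out, 4.04 and 4.14 with peaks of replicate 1 or replicate 2 alone, and 2.97 with the stronger 50% of peaks. The downstream part of the width, 49.9%, became 50.9% at 1000 bp, 49.99% to 51.3% with a replicate left out and 58.1% from gene 5′ ends. The number of coding genes, 593, became 2591 and 127 at these minimums and 865 to 1395 with a replicate left out. Chosen after seeing the data, counting all hotspots of a replicate took the regions whose replicate widths differ by over 1.5 times from 33 to 1. The CpG ratio stayed between 0.736 and 0.761. An overlap of 50% left 517 regions, and adding X and Y gave 522. The causes were not tested. The share of peaks with a GC box had no alternative. No paired analysis was possible because there is 1 group. Read depth, which could set where a hotspot ends, is unknown.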
